A study of Mus musculus with 5 samples.

Results

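Chemokines are small secreted proteins that draw leukocytes along gradients, and 40 genes of this system were followed through 5 RNA sequencing libraries of mouse fat progenitors. The genes were matched by symbol in a table of 54532 gene rows, and all 40 were found. They are 35 ligands, 4 atypical receptors and Cxcr4, the conventional receptor of CXCL12. The cells were adipose-derived stem cells of subcutaneous fat (SAT) and visceral fat (VAT) from 30 wild-type mice on chow diet, aged 12 to 14 weeks. Tissue had been digested with collagenase, endothelial (CD31+) and immune (CD45+) cells had been gated out, and the rest had been sorted on CD26 and CD142. CD26 is the surface peptidase encoded by Dpp4 and marks interstitial progenitors. CD142, the product of F3 (tissue factor), starts blood clotting and labels progenitors that were reported to hold back fat cell formation. The VAT groups were a pair of CD26-CD142+ libraries (libraries 1 and 2) and a single CD26+CD142+ library. SAT gave 2 libraries, for which the labels disagree. The title of SAT library 1 gives the gate CD26+CD142-, while its library name reads CD142. For SAT library 2 the title gives CD26-CD142+ and the library name reads CD26. Nothing in the labels says that separate pools of mice were used, so p-values measure the spread between these libraries, which may be technical. In bulk RNA, fewer cells of a type and less RNA per cell cannot be told apart.

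Conventional chemokine receptors signal through inhibitory G proteins and steer migrating leukocytes. The atypical receptors bind chemokines without that signalling and take them up or present them, so that they set how much ligand stays outside the cell. Stromal cells of fat are known sources of chemokines that recruit monocytes, neutrophils, eosinophils and lymphocytes into the depot.

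Total counts ran from 21706345 to 25357403 per library. Levels are given as CPM (the count over the library total, on a scale of 1e+06, after TMM scaling in edgeR), and between genes only as TPM, which first divides each count by the deposited gene length. The genes of the sort followed the library names in SAT and not the titles. Dpp4 was at 6.58 CPM in SAT library 1 and 1007 CPM in SAT library 2, and F3 was at 618 and 5.32 CPM. In VAT, Dpp4 was at 5.13 and 6.58 CPM in the CD26-CD142+ pair and 417 CPM in the CD26+CD142+ library, with F3 at 379, 241 and 99.1 CPM. The share of counts on mitochondrially encoded genes was 2.83% and 4.33% in the SAT and VAT libraries numbered 1, and 0.554% to 0.633% in the 3 libraries numbered 2. All 12 mesenchymal progenitor markers were detected, with a summed level of 25453 to 78629 CPM. Of the markers of gated-out cells, the immune gene Ptprc was at 0.183 to 0.989 CPM, and the 10 macrophage markers summed to 28.3 to 60.5 CPM with Cd14 at 7.14 to 23.5 CPM. The endothelial genes Pecam1 and Cdh5 were at 2.32 to 7.26 CPM and 1.16 to 5.55 CPM. The 8 endothelial markers summed to 35.7 to 322 CPM, most of it Tek (290.4 and 286 CPM in SAT library 2 and VAT CD26+CD142+, 19.9 to 66.7 CPM in the others). The 6 epithelial markers summed to 71.7 CPM in SAT library 1 and to 0.458 to 8.80 CPM in the other 4 libraries. The 10 mesothelial markers summed to 350.4 CPM in the VAT CD26+CD142+ library, 116 and 171 CPM in the VAT pair, and 167 and 4.42 CPM in SAT libraries 1 and 2, and this list includes keratins that epithelia share. Wt1 alone was at 113 and 154 CPM in the VAT pair, most of the sums there, and at 112 CPM in VAT CD26+CD142+. The other mesothelial markers together were therefore much further apart between the VAT gates than the sums.

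Most of the chemokine transcripts came from few genes. Of the 40 genes, 39 had at least 1 count in a library, 26 reached 1 CPM in a library, and 26 (not the same 26) passed the filter on low counts. Per length, the highest mean level over the 5 libraries belonged to Ccl11 (eotaxin, an attractant of eosinophils) at 1578 TPM. Cxcl1, an attractant of neutrophils, followed at 1024 TPM and the scavenging receptor Ackr3 at 879 TPM. Next came Cxcl13, which draws B cells into lymphoid follicles, at 565 TPM, the monocyte attractants Ccl2 at 502 TPM and Ccl7 at 499.9 TPM, and Cxcl14 at 471 TPM. Cxcl12, which holds blood stem cells and lymphocytes in their niches, had 219 TPM. The order of these means says little for the genes that varied most, since Cxcl13 ranged from 26.5 to 2284 TPM and Cxcl14 from 6.10 to 2017 TPM over the libraries. Ccl11 ranged from 977 to 2202 TPM and Cxcl1 from 754 to 1361 TPM, so these neighbours in the order overlapped over the libraries, as did each later pair of neighbours down to Cxcl12.

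**Figure D1:**
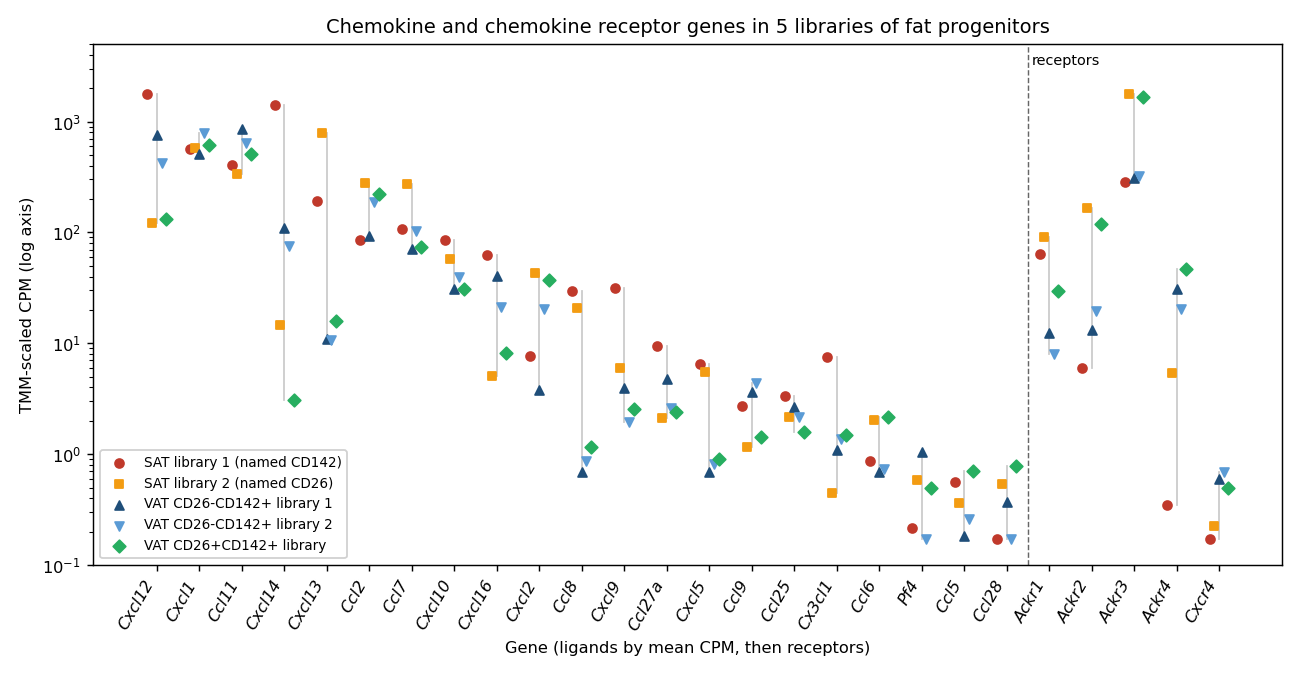
Level of the 26 genes past the filter in each of the 5 libraries, in CPM on a log axis; each point is a library and the grey line spans its gene's range. Cxcl1 kept a narrow range of 509.8 to 783 CPM, while Cxcl14 ran from 3.05 to 1421 CPM and Ackr3 fell into a low group of 285 to 320.3 CPM and a high group of 1677 and 1778 CPM.

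Summed over the 35 ligands, chemokine transcripts came to 5706 and 6754 TPM in SAT libraries 1 and 2, 3986 and 4725 TPM in the VAT pair, and 4254 TPM in the VAT CD26+CD142+ library. Both SAT sums were above the 3 VAT sums. The makeup differed more than the sum. Ccl11 made up 55.2%, 40.8% and 40.7% of ligand TPM in the 3 VAT libraries and 17.1% and 15.6% in SAT. Cxcl14 took 35.4% of ligand TPM in SAT library 1 and 0.4% in SAT library 2, where Cxcl13 took 33.8%. In VAT, Cxcl13 was between 0.642% and 1.19%.

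**Figure D2:**
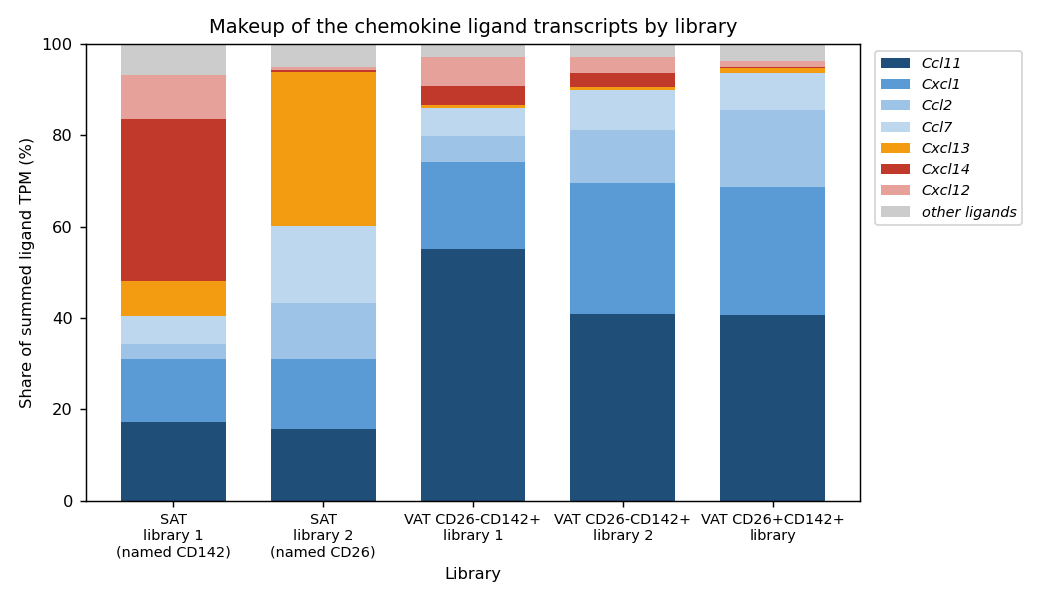
Share of the summed TPM of 35 chemokine ligands held by 7 ligands and by all others, in percent, for each library. Ccl11 held 40.7% or more in each VAT library, Cxcl14 held 35.4% in SAT library 1 and Cxcl13 held 33.8% in SAT library 2.

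With the SAT gates taken from the library names, differences of over 3-fold between gates, in the same direction in both depots, lay in the ligands Cxcl14, Cxcl12, Cxcl16 and (with a wide spread within the VAT pair) Cxcl2 and in the scavenging receptors Ackr2 and Ackr3. For Cxcl2 the VAT CD26+CD142+ library was 9.99-fold above library 1 of the pair and 1.84-fold above library 2. Cxcl14 (ENSMUSG00000021508, chromosome 13, 56288643 to 56296551 in mm10, minus strand) encodes a chemokine made by epithelia and fibroblasts, for which no single signalling receptor is agreed. Ackr3 (ENSMUSG00000044337, chromosome 1, 90203980 to 90216751, plus strand) takes up CXCL12 and CXCL11. Ackr2 (ENSMUSG00000044534, chromosome 9, 121898355 to 121911074, plus strand) takes up inflammatory CC chemokines, among them the products of Ccl2, Ccl7, Ccl8 and Ccl11. The promoter windows of these 3 genes are shown because the genes carry the gate differences that passed a test. Each runs 5′ to 3′ on the gene's strand from 250 bases before to 50 after the RefSeq start, in GRCm38.p6, the RefSeq form of the mm10 assembly. Of the 40 genes, 30 had a window in the RefSeq table.
Cxcl14, chr13:56296502-56296801, minus strand: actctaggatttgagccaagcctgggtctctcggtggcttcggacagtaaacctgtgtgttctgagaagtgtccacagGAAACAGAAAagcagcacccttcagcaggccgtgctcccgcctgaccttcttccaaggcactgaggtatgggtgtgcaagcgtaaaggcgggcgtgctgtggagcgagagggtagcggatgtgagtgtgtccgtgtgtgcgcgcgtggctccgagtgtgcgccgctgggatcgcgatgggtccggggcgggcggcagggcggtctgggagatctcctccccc
Ackr3, chr1:90203730-90204029, plus strand: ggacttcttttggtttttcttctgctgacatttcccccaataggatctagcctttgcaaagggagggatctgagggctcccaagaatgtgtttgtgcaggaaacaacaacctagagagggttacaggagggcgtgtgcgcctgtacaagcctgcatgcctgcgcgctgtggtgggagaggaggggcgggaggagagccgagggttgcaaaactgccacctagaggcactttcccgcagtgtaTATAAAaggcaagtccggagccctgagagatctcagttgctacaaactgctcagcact
Ackr2, chr9:121898105-121898404, plus strand: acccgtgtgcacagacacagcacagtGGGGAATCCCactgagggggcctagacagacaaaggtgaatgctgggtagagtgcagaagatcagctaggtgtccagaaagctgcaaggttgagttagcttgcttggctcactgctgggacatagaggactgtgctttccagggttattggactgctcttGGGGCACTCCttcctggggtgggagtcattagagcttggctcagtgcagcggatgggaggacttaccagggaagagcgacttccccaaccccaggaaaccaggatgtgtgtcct
Capitals mark matches to 4 motifs: the NF-kappaB motif, the interferon response element (GAAA, any 2 bases, GAAA) and the AP-1 motif TGANTCA, each on both strands, and TATAAA on the gene's strand. The share of all 32851 promoter windows with a match was 8.46%, 3.44%, 7.81% and 8.32% in that order. Of the 30 genes with a window 8, 3, 6 and 13 had a match in any of their windows. The units differ, since 28 of these genes had 1 window, Ccl25 had 2 and Ccl27a had 3. Ccl27a matched NF-kappaB and AP-1 only in window 3, and Ccl25 matched TATAAA only in window 2. Position 1 is the start site, and the base before it is -1. The Ackr3 window has TATAAA with its first base at -8, the Ackr2 window has NF-kappaB matches at -224 and -64, and the Cxcl14 window has an interferon response element match at -172. A match describes the letters of the window and is no evidence of binding.

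Cxcl14 was at 1421 CPM in SAT library 1 (named CD142), 14.7 CPM in SAT library 2 (named CD26), 110.2 and 76.0 CPM in VAT CD26-CD142+ libraries 1 and 2, and 3.05 CPM in the VAT CD26+CD142+ library. The 2 libraries whose names carry CD26 (SAT library 2 and VAT CD26+CD142+) were the 2 lowest for Cxcl14. In VAT, the CD26+CD142+ library was below the pair (93.1 ± 24.1 CPM, SD, n = 2) by a log2 change of -4.93 (SE 0.68), 30.5-fold, with an edgeR adjusted p of 0.00157. Within the libraries numbered 2, the only number with both VAT gates, the ratio of the CD26+CD142+ to the CD26-CD142+ library was 0.0401. Here and below the SE was taken as |log2 change| over the root of the F statistic, and adjusted p-values are Benjamini-Hochberg values of edgeR's quasi-likelihood test over 15920 genes. The single VAT CD26+CD142+ library and each SAT library were assumed to vary like the VAT pair.

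Ackr3 went the other way. It was at 285 CPM in SAT library 1, 307 and 320.3 CPM in the VAT pair, 1778 CPM in SAT library 2 and 1677 CPM in the VAT CD26+CD142+ library. The 3 lower libraries spanned 285 to 320.3 CPM, and both libraries named for CD26 were at least 5.23-fold above each of them. In VAT the log2 change was 2.42 (SE 0.51), 5.35-fold, with an edgeR adjusted p of 0.023, against a pair at 313 ± 9.66 CPM (SD, n = 2).

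Ackr2 was at 6.01 CPM in SAT library 1, 13.1 and 19.5 CPM in the VAT pair, 120.1 CPM in the VAT CD26+CD142+ library and 167 CPM in SAT library 2. The order of the 5 libraries was that of Ackr3, with the same 2 libraries high. In VAT its log2 change was 2.88 (SE 0.47), 7.37-fold, with an edgeR adjusted p of 0.00418, against a pair at 16.3 ± 4.5 CPM (SD, n = 2). Within the libraries numbered 2, the VAT ratios were 5.23 for Ackr3 and 6.17 for Ackr2. Markers of other cell types moved with this VAT contrast. Of 9 tested mesothelial markers 4 were higher, against 0.898% of all tested genes. Among them was Msln, at 0.779 and 2.41 CPM in the pair and 38.5 CPM in the CD26+CD142+ library. The mesothelial Wt1 did not rise (113, 154 and 112 CPM). The endothelial marker Tek (58.9, 66.7 and 286 CPM) and the epithelial marker Cldn3 (0.275, 0.172 and 4.45 CPM) were higher. They were the only markers of their lists to pass, of 8 endothelial and 2 epithelial markers tested. Pecam1 (4.90, 2.32 and 4.70 CPM) and Cdh5 (2.57, 1.16 and 1.40 CPM) lay within the pair, and Cldn4 was at 0.0458, 0.559 and 0 CPM. Of 6 mural markers 2 were lower, Abcc9 (7.24, 8.51 and 0.536 CPM) and Myh11 (37.9, 62.6 and 5.98 CPM). SAT library 2 is no part of this contrast. There the mesothelial markers summed to 4.42 CPM, with Msln at 0, while Tek was at 290.4 CPM and Cldn3 at 8.71 CPM. The part of these markers in the differences of Cxcl14, Ackr2 and Ackr3 was not tested.

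These were 2 genes higher and 1 lower of the 26 tested in the VAT gate comparison, where 1.6% of all tested genes passed (0.898% higher and 0.697% lower). The median log2 change of the 26 was 0.09, against -0.03 over all tested genes. Cxcl12 and Cxcl16 showed the pattern of Cxcl14 at smaller size without passing. Cxcl12 (ENSMUSG00000061353, chromosome 6, 117168535 to 117181367) was at 1764 CPM in SAT library 1, 763 and 426 CPM in the VAT pair, 131 CPM in the VAT CD26+CD142+ library and 122 CPM in SAT library 2. Its VAT log2 change was -2.18 (SE 0.62, edgeR adjusted p 0.12). Cxcl16, a membrane-anchored ligand of CXCR6 that draws T and NKT cells, was at 62.0, 40.7 and 21.1 CPM in those first 3 libraries and at 8.20 and 5.10 CPM in VAT CD26+CD142+ and SAT library 2. Its VAT log2 change was -1.91 (SE 0.57, edgeR adjusted p 0.151). For both genes the 2 libraries named for CD26 were the lowest. Cxcl16 shares 552 bases with Zmynd15 on the opposite strand, which was at 13.1, 8.53, 9.46, 2.39 and 1.80 CPM in SAT library 1, the VAT pair, VAT CD26+CD142+ and SAT library 2. Whether counting used strand is not given in the sources used here, and the part of Zmynd15 in the Cxcl16 values was not tested.

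Ligand and scavenger can be set side by side per length. The TPM ratio of Cxcl12 to Ackr3, its scavenging receptor, was 2.54 in SAT library 1, 1.02 and 0.545 in the VAT pair, 0.0321 in the VAT CD26+CD142+ library and 0.0281 in SAT library 2. Transcripts of the ligand exceeded those of the receptor only in SAT library 1 and VAT CD26-CD142+ library 1 among the 5. These ratios depend on the deposited lengths, which count 8176 bases for Cxcl12.

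Over both depots with the SAT gates taken from the library names, the same contrast gave Cxcl14 lower, by a log2 change of -5.64 (SE 0.58, edgeR adjusted p 0.0413), and Ackr3 higher, by 2.52 (SE 0.26, edgeR adjusted p 0.0413). These 2 of 26 genes stand beside 0.597% of all tested genes (0.32% higher and 0.276% lower). Ackr2 (log2 change 3.72, SE 0.52, adjusted p 0.0661), Cxcl12 (-2.85, SE 0.55, 0.117) and Cxcl16 (-2.60, SE 0.54, 0.127) did not pass in edgeR. Without VAT CD26-CD142+ library 1 the adjusted p of Ackr3 was 0.0673. With the SAT gates taken from the titles, 0 of 26 genes passed (0 at an unadjusted p under 0.05), as did 0% of all tested genes (140 at an unadjusted p under 0.05). The log2 changes were then 0.68 for Cxcl14 and 0.78 for Ackr3, both with an adjusted p of 1. The direction given for Cxcl14 over both depots therefore rests on the library names.

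The comparison of the 2 SAT libraries needs no gate label. It sets 1 library against 1 library and was made without a test. The 2 libraries also differ in library number and mitochondrial share (2.83% in library 1 and 0.554% in library 2). Gate and number cannot be told apart here. At the level of at least 2-fold with 10 CPM in the higher library, 22.4% of the 9689 genes that could be judged were apart, and of the 15 chemokine system genes that could be judged 10 were. SAT library 2 was higher for Ackr2 (27.7-fold, 95% counting interval 23.4 to 33.1), Ackr3 (6.25-fold, 6.09 to 6.41), Cxcl2 (5.64-fold), Cxcl13 (4.06-fold), Ccl2 (3.29-fold) and Ccl7 (2.52-fold). SAT library 1 was higher for Cxcl14 (96.7-fold, 86.7 to 108), Cxcl12 (14.4-fold), Cxcl16 (12.2-fold) and Cxcl9 (5.34-fold). In the VAT pair, library 2 over 1 was 5.42 for Cxcl2, 2.05 for Ccl2, 1.49 for Ackr2, 1.46 for Ccl7 and 1.04 for Ackr3. It was 0.973 for Cxcl13, 0.69 for Cxcl14, 0.559 for Cxcl12, 0.519 for Cxcl16 and 0.491 for Cxcl9. Apart from Cxcl13, these ratios have the direction seen in SAT. The part of the library number was not tested. Of the 26 genes past the filter, 18 had the same sign of difference in SAT library 2 over 1 as in VAT CD26+CD142+ over CD26-CD142+, against 73.7% of all tested genes. At least 2-fold in both depots and in the same direction were 6 of 26, Cxcl2, Cxcl12, Cxcl14, Cxcl16, Ackr2 and Ackr3, against 6.18% of all tested genes. Here the VAT CD26+CD142+ library was set against the mean of the pair. For Cxcl2 its ratio was 9.99 over library 1 of the pair and 1.84, under 2-fold, over library 2.

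**Figure D3:**
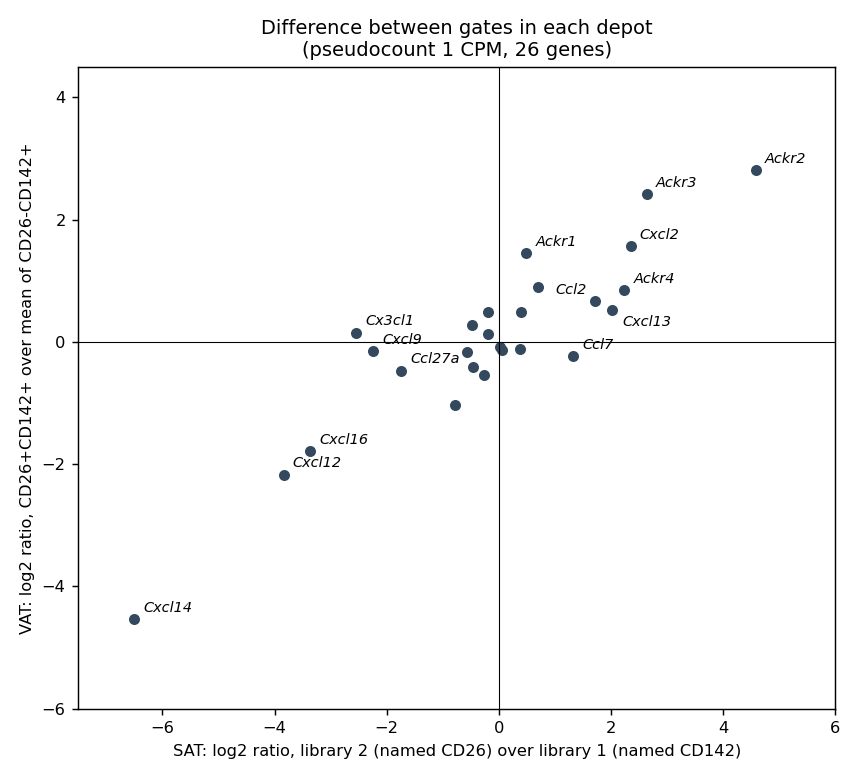
Log2 ratio between gates in each depot for the 26 genes past the filter, with a pseudocount of 1 CPM; horizontal axis, SAT library 2 over SAT library 1; vertical axis, VAT CD26+CD142+ over the mean of the VAT CD26-CD142+ pair. Cxcl14 lies at -6.50 and -4.54, and Ackr2 at 4.58 and 2.81.

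The difference between depots in this gate effect, with SAT gates by library name, passed for 0 of the 26 genes in edgeR (4 at an unadjusted p under 0.05) and 0 in DESeq2, against 0.251% of all tested genes in edgeR (0.0377% positive and 0.214% negative). The smallest p in the positive direction belonged to Ackr4 (log2 difference 3.06, SE 0.89, edgeR adjusted p 0.285) and Ackr2 (1.91, SE 0.77, adjusted p 0.844). In the negative direction it belonged to Cx3cl1 (-4.30, SE 1.29, edgeR adjusted p 0.321) and Cxcl9 (-2.22, SE 0.91, adjusted p 0.895). By title, 6 of 26 passed, against 6.61% of all tested genes (3.89% positive and 2.73% negative). Cxcl12, Cxcl14 and Cxcl16 were positive and Ackr2, Ackr3 and Ackr4 negative.

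Between depots the clearest gene was Ccl8 (ENSMUSG00000009185, chromosome 11, 82115185 to 82116799, plus strand), which encodes a chemokine that in the mouse acts through CCR8. Cxcl13 (ENSMUSG00000023078, chromosome 5, 95956951 to 95961068, plus strand) had the largest fitted difference of the set. Their promoter windows are shown for that reason, with capitals as above.
Ccl8, chr11:82114935-82115234, plus strand: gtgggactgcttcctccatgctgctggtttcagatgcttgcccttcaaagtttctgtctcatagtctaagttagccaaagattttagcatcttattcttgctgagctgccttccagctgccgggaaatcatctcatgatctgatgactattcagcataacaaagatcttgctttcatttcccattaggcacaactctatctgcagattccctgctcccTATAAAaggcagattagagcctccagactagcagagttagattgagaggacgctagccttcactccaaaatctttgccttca
Cxcl13, chr5:95956689-95956988, plus strand: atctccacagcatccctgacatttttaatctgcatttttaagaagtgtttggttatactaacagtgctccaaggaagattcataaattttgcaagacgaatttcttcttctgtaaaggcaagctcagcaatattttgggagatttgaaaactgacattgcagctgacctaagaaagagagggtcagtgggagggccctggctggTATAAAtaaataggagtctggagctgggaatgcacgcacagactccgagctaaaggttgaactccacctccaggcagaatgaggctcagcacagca
TATAAA begins at -32 in the Ccl8 window and at -46 in the Cxcl13 window, and neither window holds a match to the other 3 motifs.

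Ccl8 was at 29.4 and 20.7 CPM in SAT libraries 1 and 2, 0.688 and 0.860 CPM in the VAT pair, and 1.15 CPM in the VAT CD26+CD142+ library. SAT (25.1 ± 6.10 CPM, SD, n = 2) and VAT (0.901 ± 0.236 CPM, SD, n = 3) did not overlap. The log2 change of SAT over VAT was 4.79 (SE 0.37), 27.6-fold, with an edgeR adjusted p of 0.0453. It was 1 gene higher of 26 tested, in a comparison where 0.0503% of all tested genes passed (0.0377% higher and 0.0126% lower). The call did not hold when any single library was left out. The adjusted p without SAT library 1 was 0.0556, without SAT library 2 0.0511, without VAT CD26-CD142+ libraries 1 and 2 in turn 0.295 and 0.558, and without VAT CD26+CD142+ 0.183, with log2 changes of 4.51 to 5.01. With the library number as a block the adjusted p was 0.0917, and the call was lost there too. The SAT over VAT ratio was 42.7 between the libraries numbered 1 and 24.1 and 18.0 for SAT library 2 over the VAT libraries numbered 2.

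Cxcl13 was at 193 and 782 CPM in SAT libraries 1 and 2 and at 11.0, 10.7 and 16.0 CPM in the 3 VAT libraries. The lower SAT library was 12.1-fold above the highest VAT library. The log2 change over all gates was 5.28 (SE 0.67), and its edgeR adjusted p of 0.146 did not pass. The ratio was 17.5 between the libraries numbered 1 and 73.1 and 49.1 for SAT library 2 over the VAT libraries numbered 2. The VAT levels were near each other (12.6 ± 2.95 CPM, SD, n = 3), and the spread lay in SAT.

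Of the 26 genes tested, 7 were higher in both SAT libraries than in any VAT library (Ccl7, Ccl8, Cxcl5, Cxcl9, Cxcl10, Cxcl13 and Ackr1) and 3 were lower (Ccl11, Ackr4 and Cxcr4). Over all tested genes, 9.64% and 10.2% did so in those directions, 19.8% together. Cxcr4 had 4 and 5 counts in SAT and 13, 16 and 12 in VAT. It reached the filter's minimum count of 10 only in VAT, where it was higher, so the filter favoured its place here. It also stayed under 1 CPM in every library. Cxcl5, an attractant of neutrophils through CXCR2, was at 6.45 and 5.50 CPM in SAT and 0.688, 0.817 and 0.907 CPM in VAT. The interferon-induced T cell attractants Cxcl9 and Cxcl10 were less uniform, with Cxcl9 at 31.8 and 5.95 CPM in SAT and 3.94, 1.94 and 2.56 CPM in VAT. Cxcl10 was at 85.7 and 57.5 CPM in SAT and at 31.0, 39.4 and 31.1 CPM in VAT. None of these 3 passed in edgeR over all gates, with adjusted p of 0.184 for Cxcl5, 0.482 for Cxcl9 and 0.446 for Cxcl10. For Cxcl9, SAT library 2 was only 1.51-fold above VAT CD26-CD142+ library 1. For Ccl7, SAT library 1 was only 1.04-fold above VAT CD26-CD142+ library 2. Cxcl10 overlaps Art3 on the opposite strand, which had 398 and 101 counts in SAT and 120, 104 and 47 in VAT, against 677 to 1980 counts of Cxcl10.

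Ackr1, the receptor that presents chemokines on venules and buffers them on red cells, was at 64.0 and 90.4 CPM in SAT, 12.3 and 7.96 CPM in the VAT pair and 29.4 CPM in VAT CD26+CD142+. The log2 change of SAT over VAT was 2.22 (SE 0.58, edgeR adjusted p 0.479). Ackr1 (chromosome 1, 173331886 to 173333750) shares 493 bases on the same strand with Cadm3, an adhesion gene. Cadm3 was at 311 and 973 CPM in SAT, 66.4 and 91.0 CPM in the VAT pair and 381 CPM in VAT CD26+CD142+, overlapping between depots, and Ackr1 counts were 7.73% to 20.6% of Cadm3 counts. Reads of the 2 genes could have been split by the counting, and the part of Cadm3 in the Ackr1 values was not tested.

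Ackr4 (ENSMUSG00000079355) encodes a scavenger of CCL19, CCL21 and CCL25. It was at 0.346 and 5.37 CPM in SAT libraries 1 and 2, 31.2 and 20.3 CPM in the VAT pair and 47.1 CPM in VAT CD26+CD142+. SAT lay below VAT without overlap, by a log2 change of -3.53 (SE 1.14, edgeR adjusted p 0.582). In each depot the library named for CD26 had the highest level. Its span on chromosome 9, 104084157 to 104126933, lies within Acad11 on the opposite strand, and Acad11 was nearly level at 10.3 to 13.9 CPM in the 5 libraries.

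Over all 26 genes, the depot comparison gave 19 positive and 7 negative log2 changes with a median of 0.47, against 0.01 for all tested genes. Of the 25 that did not pass, Ccl11 had a log2 change of -0.84 (SE 0.35, edgeR adjusted p 0.757) and Ccl7 of 1.2 (SE 0.44, adjusted p 0.681). Cxcl14, with 1 high SAT library, had 3.51 (SE 1.93, adjusted p 0.926).

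**Figure D4:**
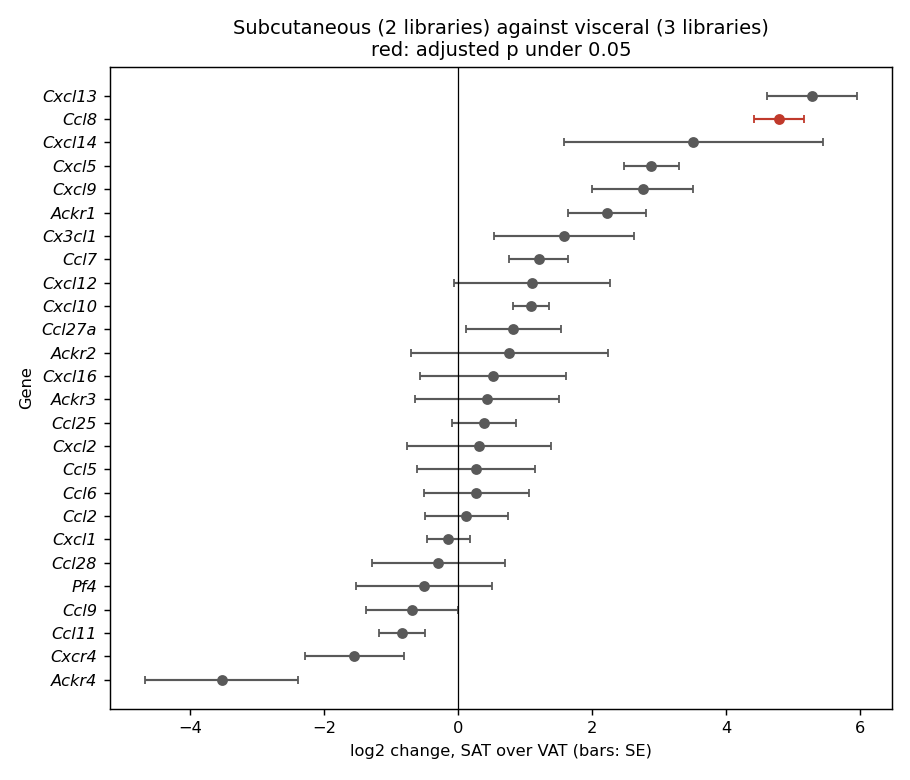
Log2 change of SAT (2 libraries) over VAT (3 libraries) with its SE for the 26 genes past the filter, from edgeR's quasi-likelihood test. Ccl8 at 4.79, in red, passed an adjusted p of 0.05; Cxcl13 at 5.28 and Ackr4 at -3.53 did not.

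Within CD142-sorted cells by library name, SAT library 1 was set against the VAT CD26-CD142+ pair. Here 6 of the 26 genes were higher in SAT and 1 was lower, against 2.36% of all tested genes (1.36% higher and 0.992% lower). The higher genes were Ccl8 (log2 change 5.24, SE 0.57, edgeR adjusted p 8.9e-05), Cxcl13 (4.15, SE 0.49, 0.000205), Cxcl14 (3.93, SE 0.51, 0.000388), Cxcl9 (3.44, SE 0.58, 0.00318), Ackr1 (2.66, SE 0.48, 0.00528) and Cxcl5 (3.09, SE 0.74, 0.0375). The lower gene was Ackr4 (-6.20, SE 0.74, edgeR adjusted p 0.000236). Cadm3, beside Ackr1, was also higher, with a log2 change of 1.98 and an adjusted p of 0.0468. Epithelial genes moved with SAT library 1, with Epcam at 25.2 CPM there and at most 0.0860 CPM elsewhere. Markers of other cell types moved in the same comparison. The mural Abcc9 (98.2 CPM against 7.24 and 8.51) and Kcnj8 (13.7 against 1.38 and 1.08), the macrophage Csf1r (13.8 against 2.38 and 1.81), the Schwann S100b (25.9 against 5.23 and 3.96) and the platelet Itga2b (34.9 against 7.52 and 8.34) were higher. The mural Myh11 (5.67 against 37.9 and 62.6) and the mesothelial Wt1 (0 against 113 and 154) and Msln (0 against 0.779 and 2.41) were lower. The mesothelial list went both ways. Its keratins Krt8 (45.8 against 0.275 and 0.860) and Krt18 (46.7 against 0.733 and 0.344), which epithelia share, were higher. The epithelial markers summed to 71.7 CPM in SAT library 1 and to 0.458 and 0.860 CPM in the VAT pair. Cxcl14 was at 1421 CPM in SAT library 1 and at 110.2 and 76.0 CPM in the VAT pair. The part of these markers in the 7 chemokine and receptor calls was not tested.

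By title the SAT library of this comparison is library 2, and 11 of 26 genes passed, 7 higher and 4 lower, against 6.48% of all tested genes (2.8% higher and 3.68% lower). The 2 readings share the VAT pair. Ccl8 (log2 change 4.73, edgeR adjusted p 6.24e-05), Cxcl13 (6.17, 4.1e-06), Cxcl5 (2.86, 0.0276), Ackr1 (3.16, 0.00054) and Ackr4 (-2.26, 0.0196) passed in the same direction under either reading. Cxcl14 was lower by title (-2.66, edgeR adjusted p 0.0103), the reverse of the reading by name, and Cxcl9 did not pass (1.02, 0.519). Ccl7 (1.64, 0.0479), Ackr2 (3.35, 0.000282) and Ackr3 (2.50, 0.00554) passed higher, and Cxcl12 (-2.28, 0.0366) and Cxcl16 (-2.60, 0.0128) lower, by title alone.

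Many of these genes lie in clusters. On chromosome 11, Ccl2, Ccl7, Ccl11, Ccl12 and Ccl8 lie within 81.2 kb (82035571 to 82116799). Ccl11 was at 408 and 339 CPM in SAT and 859, 640.4 and 513 CPM in VAT, Ccl7 at 108 and 273 CPM in SAT and 70.9, 104 and 74.2 CPM in VAT, and Ccl12 at no more than 0.215 CPM in any library. Ccl8, which lies 11.8 kb from Ccl12, and Ccl7 were higher in both SAT libraries than in VAT, while Ccl11 was lower in both. For Ccl7 the gap was small, as SAT library 1 was only 1.04-fold above VAT CD26-CD142+ library 2. The monocyte attractant Ccl2 overlapped between depots, at 85.4 and 281 CPM in SAT and 92.4, 189 and 224 CPM in VAT. Its 2 lowest values came from the 2 libraries numbered 1, which also had the higher mitochondrial shares of 2.83% and 4.33%, and the part of the library number was not tested.

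On chromosome 5, Cxcl5, Ppbp, Pf4, Cxcl3, Cxcl15, Cxcl1 and Cxcl2 lie within 147 kb. Cxcl1, Cxcl2 and Cxcl3 encode related neutrophil attractants that act through CXCR2, and a stretch of each promoter is shown because the 3 genes share the same NF-kappaB letters at very different levels. The stretches run from -110 to -51 on the plus strand, and the capitals mark 2 overlapping NF-kappaB matches.
Cxcl1, chr5:90891135-90891194: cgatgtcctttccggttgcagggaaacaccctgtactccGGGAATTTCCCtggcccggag
Cxcl2, chr5:90903789-90903848: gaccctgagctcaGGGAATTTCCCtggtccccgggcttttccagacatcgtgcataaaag
Cxcl3, chr5:90785991-90786050: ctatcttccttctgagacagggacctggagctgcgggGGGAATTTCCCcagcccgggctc
Cxcl1 was at 568 and 575 CPM in SAT and 509.8, 783 and 611 CPM in VAT, with a mean of 1024 TPM. Cxcl2 was at 7.70 and 43.4 CPM in SAT and 3.76, 20.4 and 37.5 CPM in VAT, with a mean of 36.7 TPM. Cxcl3 was at 0.260 and 2.21 CPM in SAT and at most 0.0860 CPM in VAT, with a mean of 0.496 TPM. Cxcl1 was the steadiest of the 3 and Cxcl2 the most variable in VAT, where the like-labelled CD26-CD142+ pair differed 5.42-fold. As for Ccl2, the 2 lowest Cxcl2 values came from the libraries numbered 1.

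**Figure D5:**
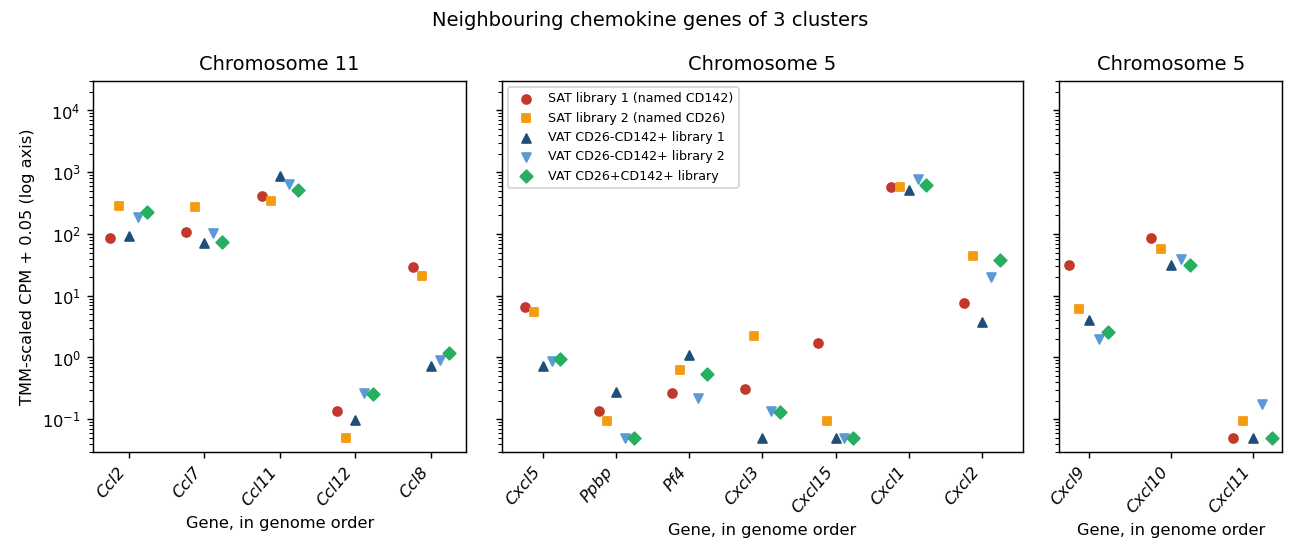
Level in each library, as CPM plus 0.05 on a log axis, of neighbouring chemokine genes of 3 clusters in genome order. On chromosome 11, Ccl8 is SAT-high beside Ccl11, which is lowest in SAT, and on chromosome 5 Cxcl1 stays at 509.8 to 783 CPM beside genes near 0.

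Ligands of low level formed the rest of the set. The CX3CR1 ligand Cx3cl1 was at 7.49 CPM in SAT library 1 and between 0.451 and 1.48 CPM in the other 4. Ccl27a, a ligand of CCR10 known from skin, was at 9.39 CPM in SAT library 1, 2.12 CPM in SAT library 2, 4.77 and 2.62 CPM in the VAT pair and 2.39 CPM in VAT CD26+CD142+. The thymus and gut ligand Ccl25 had 3.38, 2.17, 2.66, 2.15 and 1.57 CPM in that order. In the same order the CCR1 ligands Ccl9 and Ccl6 had 2.73, 1.17, 3.62, 4.39 and 1.44 CPM, and 0.865, 2.03, 0.688, 0.731 and 2.18 CPM. Ccl27a shares 8 bases and Ccl25 204 bases with the far more abundant Il11ra1 and Elavl1 on the opposite strand, and what these add to the counts was not tested. Pf4, a platelet chemokine, had 0.216, 0.586, 1.05, 0.172 and 0.495 CPM. None of these 6 genes passed a comparison by library name.

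Cxcl17 and Cxcl15 were found almost only in SAT library 1. Cxcl17, a product of mucosal epithelia, had 99 counts (4.28 CPM) there and 0 in the other 4 libraries, where its antisense gene had 5 to 32 counts. That is at least 131-fold higher than a floor of 3 counts over those 4. Cxcl15, known from lung epithelium, had 39 counts (1.69 CPM) there and 1 count in SAT library 2, a ratio of 154 to the other 4 with a 95% counting interval of 26.1 to 6253. The filter removed both. Without the filter, both passed in edgeR between SAT library 1 and the VAT pair, and Cxcl17 passed for the CD26 gate. Epithelial genes were highest in the same library, with Krt18 at 46.7 CPM, Cldn4 at 18.8 CPM and the milk protein gene Csn3 at 17.0 CPM there, and Csn3 at 0 in the other 4. Their part in the Cxcl17 and Cxcl15 counts was not tested.

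The remaining 14 genes stayed under 1 CPM in every library: Ccl3, Ccl4, Ccl5, Ccl12, Ccl17, Ccl19, Ccl20, Ccl22, Ccl24, Ccl28, Cxcl11, Xcl1, Ppbp and Cxcr4. They include Ccl19, which guides dendritic cells to lymph nodes, and the leukocyte products Ccl3, Ccl4, Ccl5 and Xcl1. Ccl20 had 0 counts in all 5 libraries, where a count of 0 allows up to 0.124 to 0.138 CPM. Cxcr4, the signalling receptor of CXCL12, was at 0.173 to 0.688 CPM, with a mean of 0.764 TPM against 879 TPM for Ackr3, the other receptor of CXCL12.

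Genes around the ligands were read from 5 lists. Of 18 further chemokine receptor genes (the conventional receptors and the chemerin-binding Ccrl2), 16 stayed under 1 CPM in every library, 3 of them at 0, and their summed level was 5.28 to 12.3 CPM. Of the 3 that could be tested, 0 passed between depots or between gates by library name. Of 42 genes of inducing cytokines, their receptors and NF-kappaB, 41 were tested and 0 passed in those comparisons. In the VAT gate comparison 0.697% of all tested genes were lower and 0.898% higher in VAT CD26+CD142+. The list of receptor coupling and desensitization had 20 tested genes, of which 2 were lower and 0 higher there. They were Gnai1, an inhibitory G protein subunit through which chemokine receptors signal (log2 change -2.73, SE 0.55, edgeR adjusted p 0.0169), and Rgs4, which switches such G proteins off (-4.92, SE 0.95, 0.0133; 8.57 and 4.26 CPM in the VAT pair and 0.206 CPM in the other). Gnai1 was at 42.6 and 8.21 CPM in SAT libraries 1 and 2, 89.9 and 82.0 CPM in the VAT pair and 12.9 CPM in VAT CD26+CD142+. The 2 libraries named for CD26 were again the lowest.

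Of 16 tested proteoglycan genes that anchor chemokines, only Sdc1 passed in the VAT gate comparison (log2 change -2.65, SE 0.55, edgeR adjusted p 0.0209). Sdc1 encodes syndecan-1, whose heparan sulfate chains hold chemokines, and was at 54.3 and 8.71 CPM in SAT, 45.7 and 37.6 CPM in the VAT pair and 6.64 CPM in VAT CD26+CD142+. Of all tested genes 1.6% passed in the VAT gate comparison. Of 10 tested peptidase genes, Dpp4 passed there, which is the gene of the sort and no independent result. Its product is known to trim CXCL12 at the amino end. Between SAT library 1 and the VAT pair, 2 peptidases were higher, Mmp3 (log2 change 6.71, SE 0.56, edgeR adjusted p 1.23e-05) and Anpep (1.85, SE 0.46, 0.0477). Of all tested genes 1.36% were higher in that comparison. Mmp3 was at 1649 and 588 CPM in SAT and 15.8, 15.7 and 4.49 CPM in VAT, without overlap. Anpep was at 206 and 301 CPM in SAT and 51.7, 62.1 and 154 CPM in VAT, also without overlap. The share of all tested genes higher in SAT without overlap was 9.64%. Over all gates 0 of the 10 peptidase genes passed between depots, with a median log2 change of 0.95 against 0.01 for all tested genes.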

How the data were processed

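RNA was measured in 5 poly(A)-selected libraries. The authors deposited 1 table of raw read counts per gene, not normalized, with a gene length in bases (another unit) per the file headers. Per the submitters' processing notes, mm10 was the build, and featureCounts 1.5.0-p3, HISAT2 2.0.5 and CASAVA were used. The annotation release, the strand setting and how the length was computed are not given in the sources used here. All 40 genes had the same start and end in GENCODE M21. Symbols of 2 of the 40 also name 3 rows on unplaced scaffolds, which were left out. Promoter windows came from a RefSeq table of GRCm38.p6.

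Counts were scaled by TMM in edgeR 4.0.16 (R 4.3.3, limma 3.58.1), and TPM used the deposited lengths. filterByExpr at a minimum count of 10 kept 15920 genes and removed 38612. Of the 40 genes, 26 were kept. Each test was edgeR's quasi-likelihood F test (robust fit), with Benjamini-Hochberg adjustment at 0.05 over all kept genes. Residual degrees of freedom were 3 for depot, 2 for the CD26 gate with depot as a term, and 1 for the 4-group fit, whose spread comes from the VAT CD26-CD142+ pair. That pair differed by 155 times its degrees of freedom in a chi-square over genes, so it was counted as 2 libraries. The 2 SAT libraries were compared without a test. Intervals are exact at 95% and, like floors, cover counting error only. The tests were tried on simulated counts with known changes.

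SAT gates were taken from the library names, and from the titles as an alternative. Values were never used to assign a library. The other alternatives were DESeq2 1.42.0, its size factors, no filter, the library number as a block, another pseudocount and leaving out each library. The genes and lists were chosen with earlier results of these data known. Every gene of the 40 may be named; those at 1 CPM or more in a library are given by library. Full statistics go to those that pass or, where none does, to the 2 smallest p in each direction; statistics of others that did not pass were added after their values were seen. Other genes come only from the lists.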

Additional observations from a re-analysis of the deposited data

Results flagged for a closer look

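Counts also fell on rows that carry the symbol of a chemokine but lie on unplaced scaffolds and enter no comparison. A Ccl27a row on a scaffold had 28 counts in VAT CD26-CD142+ library 2 and 3 to 6 counts in each of the other 4 libraries. Another Ccl27a row and another Ccl19 row, both on a scaffold, had 0 counts in every library. The Ccl27a row on chromosome 4 had 61 counts in VAT CD26-CD142+ library 2. Ccl27a values are uncertain where the counting split reads between copies.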

How the results depend on the processing

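For the 13 single-gene results that passed, 104 alternative values were computed. Of these, 72 kept direction and call, 10 lost the call and 2 reversed. The other 20 had no test: 13 kept their direction and moved by less than the SD of the VAT pair, and 7 kept it and moved by more. The 2 reversals follow from taking the SAT gates from the titles, with log2 changes of 0.68 for Cxcl14 over both depots and -2.66 for Cxcl14 between SAT and the VAT pair. Taken from the titles, the genes of the 40 that passed were 0 in place of 2 for the CD26 gate (all genes 0 in place of 95), 11 in place of 7 between CD142 cells (1032 in place of 375), and 6 in place of 0 for the difference between depots (1053 in place of 40).

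Without the filter, 2 passed for depot in place of 1 (all genes 70 in place of 8), 6 for the VAT gate in place of 3 (491 in place of 254) and 6 for the CD26 gate (775 in place of 95). All-gene counts also rose to 727 between CD142 cells and 181 for the difference between depots, and to 85 for the latter with DESeq2. With DESeq2, 7 passed for depot (461) and 8 for the CD26 gate (1329), and the adjusted p of Cxcl5 between CD142 cells was 0.0848. Leaving out each library gave 0 to 1 for depot (all genes 0 to 17), 3 to 4 for the VAT gate (up to 383, without SAT library 1), 1 to 7 for the CD26 gate (138 to 2034) and 7 to 10 between CD142 cells (up to 580, without SAT library 2). The CD26 gate had 7 when either VAT CD26+CD142+ or VAT CD26-CD142+ library 2 was left out, and 4 when SAT library 1 was. The cause was not tested. Leaving out either library of the VAT pair left the VAT gate, CD142 and interaction contrasts with no residual degree of freedom and so no test.

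With the replicate block, the number that ends the library name, 0 of 26 genes passed for depot (all genes 5), and Ccl8 kept its log2 change of 4.79 with an edgeR adjusted p of 0.0917. The deviations of same-numbered libraries had correlations of 0.66 (SAT library 1 with VAT CD26-CD142+ library 1), 0.65 (SAT library 2 with VAT CD26+CD142+) and 0.02 (SAT library 2 with VAT CD26-CD142+ library 2), so the last pair did not deviate together. Deviations were taken from the depot mean, so those of the 2 SAT libraries are mirror images and the correlations are not separate observations. The pairs at 0.66 and 0.65 are also alike in the CD26 gate by library name. There are 2 numbers, and in SAT the number goes with the gate, so number and gate cannot be told apart. Genes under 1 CPM were not resolved at this depth.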
